A study of Mus musculus with 188 samples.

Results

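The inflammatory mediator genes described here are Acod1, Fpr1, Gpr84, Il1a, Il1b, Tnf, Tnfrsf1a, Nos2, Lcn2 and Saa3, 10 of the 25655 genes listed in the count tables of the first sequencing batch and of the 25528 listed in those of batches 2 and 3. They were chosen because several of them stood far above their group in single libraries, or, for Gpr84 and Tnfrsf1a, because the study names them, so the measured levels of single libraries chose the list and are given below as description, with no test. All 10 were found by their Ensembl identifiers (ENSMUSG00000022126, ENSMUSG00000045551, ENSMUSG00000063234, ENSMUSG00000027399, ENSMUSG00000027398, ENSMUSG00000024401, ENSMUSG00000030341, ENSMUSG00000020826, ENSMUSG00000026822 and ENSMUSG00000040026, in the order of the names). In each of the 2 sets of libraries 9 passed the filter on low counts, and Il1b, which had 0 counts in most libraries, did not.

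Organotypic brain slices, thin coronal sections kept alive on inserts at an air-liquid interface, were prepared from young adult wild-type C57BL/6J mice of both sexes and exposed to haemoglobin (Hb) or to heme carried on albumin, with or without the plasma scavengers that bind them, haptoglobin (Hp) for Hb and hemopexin (Hpx) for heme. Bulk mRNA of each culture was sequenced, giving 188 libraries, of which the labels place all but 21 in 18 groups, those 21 having conflicting or unsettled labels and entering no comparison. Batch 1 holds 60 libraries, 10 each of untreated control slices, slices given heme-albumin at 12.5, 50, 200 or 400 µM, and slices given a preformed complex of heme and hemopexin, without albumin (hemeHpx), at 200 µM, all taken at 24 h. The titles of the 10 hemeHpx libraries name haptoglobin, whereas their treatment tags and library names give hemopexin, and the tags were followed. The assigned libraries of batches 2 and 3 are control slices (10 at 24 h, 9 at 48 h), Hb at 200 and at 400 µM (10 each at each time), Hb with haptoglobin (HbHp) at 200 µM (8 at each time) and at 400 µM (4 at 24 h, 5 at 48 h), and haptoglobin alone at 400 µM (12 at 24 h, 11 at 48 h). The HbHp and Hp groups came from batch 3 only, whereas each control and Hb group had 2 libraries of batch 3 and its rest in batch 2. Library names of batches 2 and 3 also carry an experiment code, E1 or E2. All HbHp libraries carry E2, while the control, Hb and Hp groups hold both, so comparisons of HbHp in part also compare these codes. Nothing in the labels says which libraries came from separate animals, so p-values measure the spread between these libraries. Library totals ranged from 11038484 to 44199060 counts (median 22054776) in batch 1 and from 15587938 to 54174784 (median 30780939.5) in batches 2 and 3. Markers of astrocytes, oligodendrocytes, neurons and microglia were detected in every group, the lowest summed level of any library being 2189, 11100, 290.3 and 408.6 in that order, in CPM (read counts scaled to the library total).

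These genes belong to the acute response of myeloid cells, which in brain tissue are mainly microglia and border macrophages. Toll-like receptor ligands and cytokines switch on NF-kappaB and related factors, which transcribe the cytokines Tnf, Il1a and Il1b within hours, while Acod1 encodes the mitochondrial enzyme that makes itaconate in activated macrophages. Fpr1, a receptor for formylated peptides, and Gpr84, a receptor for medium-chain fatty acids, are chemoattractant or metabolite sensors of the same cells. Tnfrsf1a encodes the widely expressed receptor for TNF, Nos2 the inducible nitric oxide synthase, Lcn2 an iron-siderophore-binding protein of astrocytes and neutrophils, and Saa3 a local acute-phase protein.

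The stretches just upstream of the transcription start are shown for the 6 members that stood high together in single libraries, and for Tnfrsf1a, which did not. RefSeq held a promoter for 9 of the 10 members (build GRCm38.p6, an older build than the GRCm39 named in the submitters' processing notes), and Nos2 had no entry. The 100 bases before the start lie at chr14:103046912-103047011 (plus strand) for Acod1, chr17:17883940-17884039 (minus strand) for Fpr1, chr15:103310439-103310538 (minus strand) for Gpr84, chr2:129309973-129310072 (minus strand) for Il1a, chr2:129371140-129371239 (minus strand) for Il1b, chr17:35202008-35202107 (minus strand) for Tnf and chr6:125349623-125349722 (plus strand) for Tnfrsf1a. They read 5′ to 3′, with the TATA-box letters TATAAA in capitals.
Acod1: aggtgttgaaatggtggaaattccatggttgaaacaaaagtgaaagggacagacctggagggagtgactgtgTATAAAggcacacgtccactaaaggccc
Fpr1: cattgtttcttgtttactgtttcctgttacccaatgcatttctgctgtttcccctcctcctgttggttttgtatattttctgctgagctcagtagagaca
Gpr84: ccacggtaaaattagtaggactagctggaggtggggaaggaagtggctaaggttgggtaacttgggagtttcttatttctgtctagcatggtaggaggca
Il1a: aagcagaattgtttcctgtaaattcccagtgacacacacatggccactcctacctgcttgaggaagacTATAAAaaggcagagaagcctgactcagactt
Il1b: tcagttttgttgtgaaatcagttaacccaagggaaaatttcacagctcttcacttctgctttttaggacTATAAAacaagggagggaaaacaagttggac
Tnf: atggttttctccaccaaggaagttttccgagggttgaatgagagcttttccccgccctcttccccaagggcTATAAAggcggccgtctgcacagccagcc
Tnfrsf1a: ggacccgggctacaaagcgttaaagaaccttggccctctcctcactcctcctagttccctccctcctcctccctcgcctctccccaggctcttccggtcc
Acod1, Il1a, Il1b and Tnf carried TATAAA beginning between 35 and 20 bases before the start, a placement found in 2.12% of the 32851 RefSeq promoters. Fpr1 and Gpr84 did not. Fpr1 held TATAAA farther off, on either strand within the 250 bases before the start, making 5 of the 9 members against 12.4% of all promoters. In the same windows TGANTCA, the AP-1 motif, was present for Il1a (6.75% of all promoters), TTGCNNAA, the C/EBP motif, for Lcn2 and Saa3 (9.56%), and neither the NF-kappaB consensus (7.25%) nor GAGGAAGT, a PU.1 motif (2.44%), was matched in any of the 9. Gpr84 and Tnfrsf1a held none of these motifs. A match describes letters in these windows only.

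In 4 of the assigned libraries at least 3 of the 10 genes stood far above their own group, that is, at 4 times the group median or more on the log2 CPM scale with a prior count of 2, and with at least 10 counts. They were heme-albumin 400 µM replicate 2 (3 genes), heme-albumin 50 µM replicate 4 (6 genes), hemeHpx 200 µM replicate 4 (5 genes) and HbHp 400 µM at 48 h replicate 2 (5 genes). None of the members reached that level in the other 57 libraries of batch 1 or the other 106 of batches 2 and 3, and none did so in any control library. Counted over genes and libraries, 14 of 600 pairs in batch 1 and 5 of 1070 in batches 2 and 3 were far above, beside 0.148% and 0.184% of the pairs over all genes tested; since the genes were picked for these values, nothing is read from the difference. The replicate-mates of each of the 4 libraries are called its group-mates below. Levels are given in CPM, which is not scaled for gene length, so they are compared between libraries and never between genes.

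**Figure D1:**
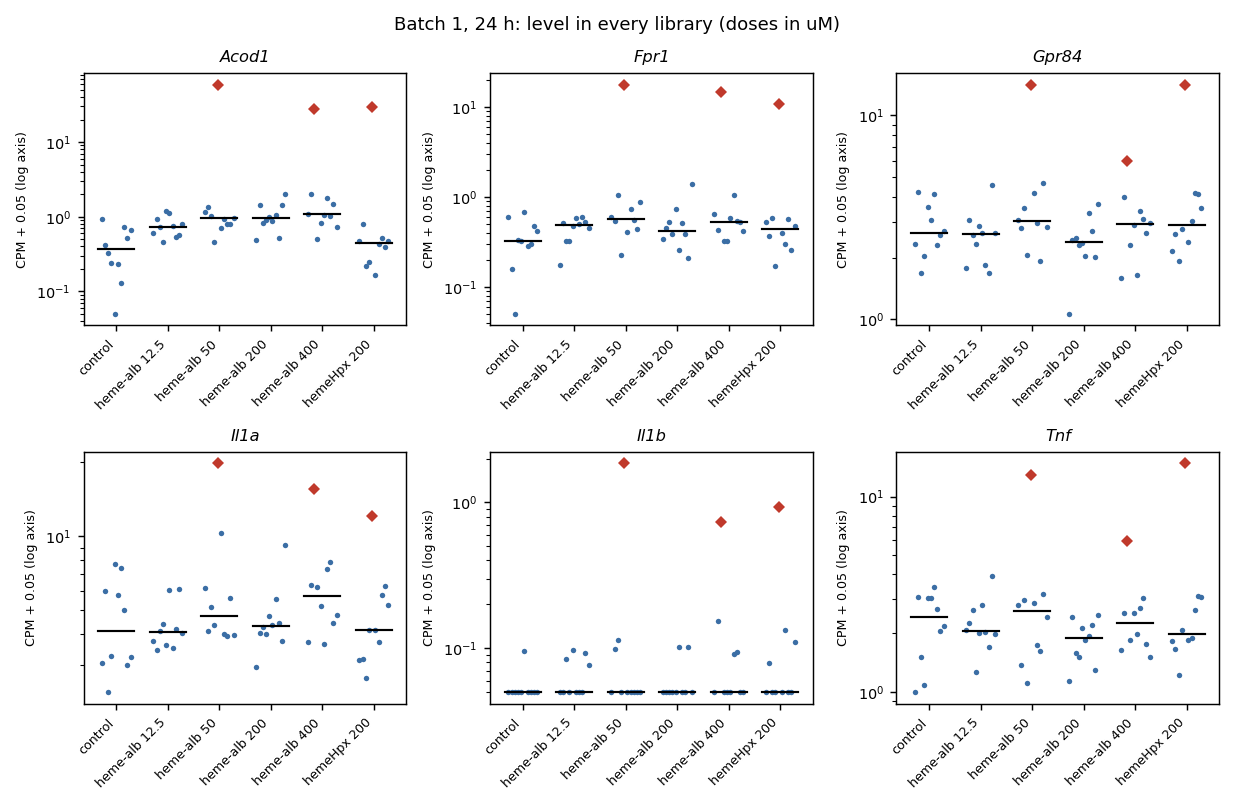
Level of Acod1, Fpr1, Gpr84, Il1a, Il1b and Tnf (CPM plus 0.05, log axis) in every library of batch 1, by treatment group; each point is 1 library, the black line is the group median, and red diamonds are the 3 libraries standing apart. Acod1 sits at 27.3, 58.5 and 29.4 CPM in those 3 libraries and at most at 1.98 CPM in the other 57.

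Acod1, the itaconate-producing enzyme, stood far above its group in all 4. It measured 27.3 CPM (764 counts) in heme-albumin 400 µM replicate 2, where the 9 group-mates ran from 0.451 to 1.98 CPM with a median of 1.0. In heme-albumin 50 µM replicate 4 it measured 58.5 CPM (1387 counts) against 0.414 to 1.28 CPM (median 0.870). These levels were 27.2 and 67.3 times the median of the group-mates. In hemeHpx 200 µM replicate 4 it was 29.4 CPM (1269 counts) against 0.117 to 0.760 CPM (median 0.379), a ratio of 77.6. In the 5 libraries of HbHp 400 µM at 48 h the levels were 0.596, 68.6, 0.422, 0.635 and 0.679 CPM, so that replicate 2 stood 112 times above the median of the other 4. No value of Acod1 in any other assigned library came near: the highest were 1.98 CPM in batch 1 and 1.72 CPM in batches 2 and 3, the latter in a 24 h control.

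Among the receptors, Fpr1 followed Acod1 in the same 4 libraries and Gpr84 did so in 3. Fpr1 reached 14.5 CPM in heme-albumin 400 µM replicate 2 (group-mates 0.271 to 1.01), 17.6 in heme-albumin 50 µM replicate 4 (0.177 to 1.01) and 10.7 in hemeHpx 200 µM replicate 4 (0.119 to 0.536), each about 30 to 35 times the group-mates' median (30.7, 35.2 and 30.4). In HbHp 400 µM at 48 h the 5 libraries held 0.0917, 40.7, 0.130, 0.317 and 0.113 CPM, the second being 335 times the median of the rest, which rests on few counts. Gpr84 measured 14.1 CPM in both heme-albumin 50 µM replicate 4 and hemeHpx 200 µM replicate 4, above group-mates at 1.88 to 4.63 and 1.88 to 4.11 CPM. It was 24.2 CPM in HbHp 400 µM replicate 2 beside 4.91, 4.61, 3.85 and 5.51 CPM. In heme-albumin 400 µM replicate 2 it was 5.93 CPM, above every group-mate (1.55 to 3.92) but below the 4-fold mark. Gpr84 in heme-albumin 50 µM replicate 4 lay just inside that mark at 2.21 log2 units above the group median, where the mark is at 2.

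The cytokines stood high in the same libraries. Tnf measured 5.86, 12.9 and 14.8 CPM in the heme-albumin 400 µM, heme-albumin 50 µM and hemeHpx libraries, and no group-mate exceeded 2.96, 3.11 and 3.07 CPM. In HbHp 400 µM at 48 h its levels were 3.76, 19.3, 3.66, 5.20 and 5.20 CPM, the second being 4.31 times the median of the other 4 but only 1.9 log2 units above the median of all 5, just outside the mark. Il1a measured 15.5 CPM in heme-albumin 400 µM replicate 2 (group-mates 3.61 to 7.83), 19.8 CPM in heme-albumin 50 µM replicate 4 (3.88 to 10.3), 12 CPM in hemeHpx replicate 4 (2.62 to 6.2) and 23 CPM in HbHp 400 µM replicate 2 (6.83 to 9.24). It was the highest of its group in all 4, at 2.86 to 4.59 times the group-mates' median. Il1b, the secreted interleukin that needs the inflammasome for processing, had 19, 43, 38 and 19 counts in the 4 libraries (0.679, 1.81, 0.879 and 0.695 CPM). Elsewhere its level never passed 0.105 CPM, and it was at 0 counts in 42 of 57 and 77 of 106 libraries, which at these depths limits the level without showing absence.

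The remaining members did not share the pattern. Tnfrsf1a, the TNF receptor, measured 250, 270 and 260 CPM in the heme-albumin 400 µM, heme-albumin 50 µM and HbHp 400 µM libraries, each inside the range of its group-mates (241 to 268, 244 to 274 and 240 to 269 CPM), and 237 CPM in the hemeHpx library, the lowest of its group (others 243 to 277). Nos2 lay within its group in the 3 libraries of batch 1 (2.93, 3.21 and 3.10 CPM) and was 4.53 CPM in HbHp 400 µM replicate 2, above the other 4 at 1.21 to 1.88 CPM. The acute-phase genes split in the same way. Lcn2 measured 3038 CPM in heme-albumin 400 µM replicate 2, above group-mates at 983 to 1853, but 2399 CPM in heme-albumin 50 µM replicate 4, second to a group-mate at 2613, and 2015 CPM in the hemeHpx library, inside its range of 948 to 2092. In HbHp 400 µM at 48 h Lcn2 measured 884, 2644, 571, 502 and 884 CPM. Saa3 measured 361, 1275, 191, 227 and 286 CPM there, the second being 4.97 times the median of the others and far above, whereas in batch 1 it was highest of its group in heme-albumin 400 µM replicate 2 (752 CPM, others 257 to 598) and inside the range in the other two.

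**Figure D2:**
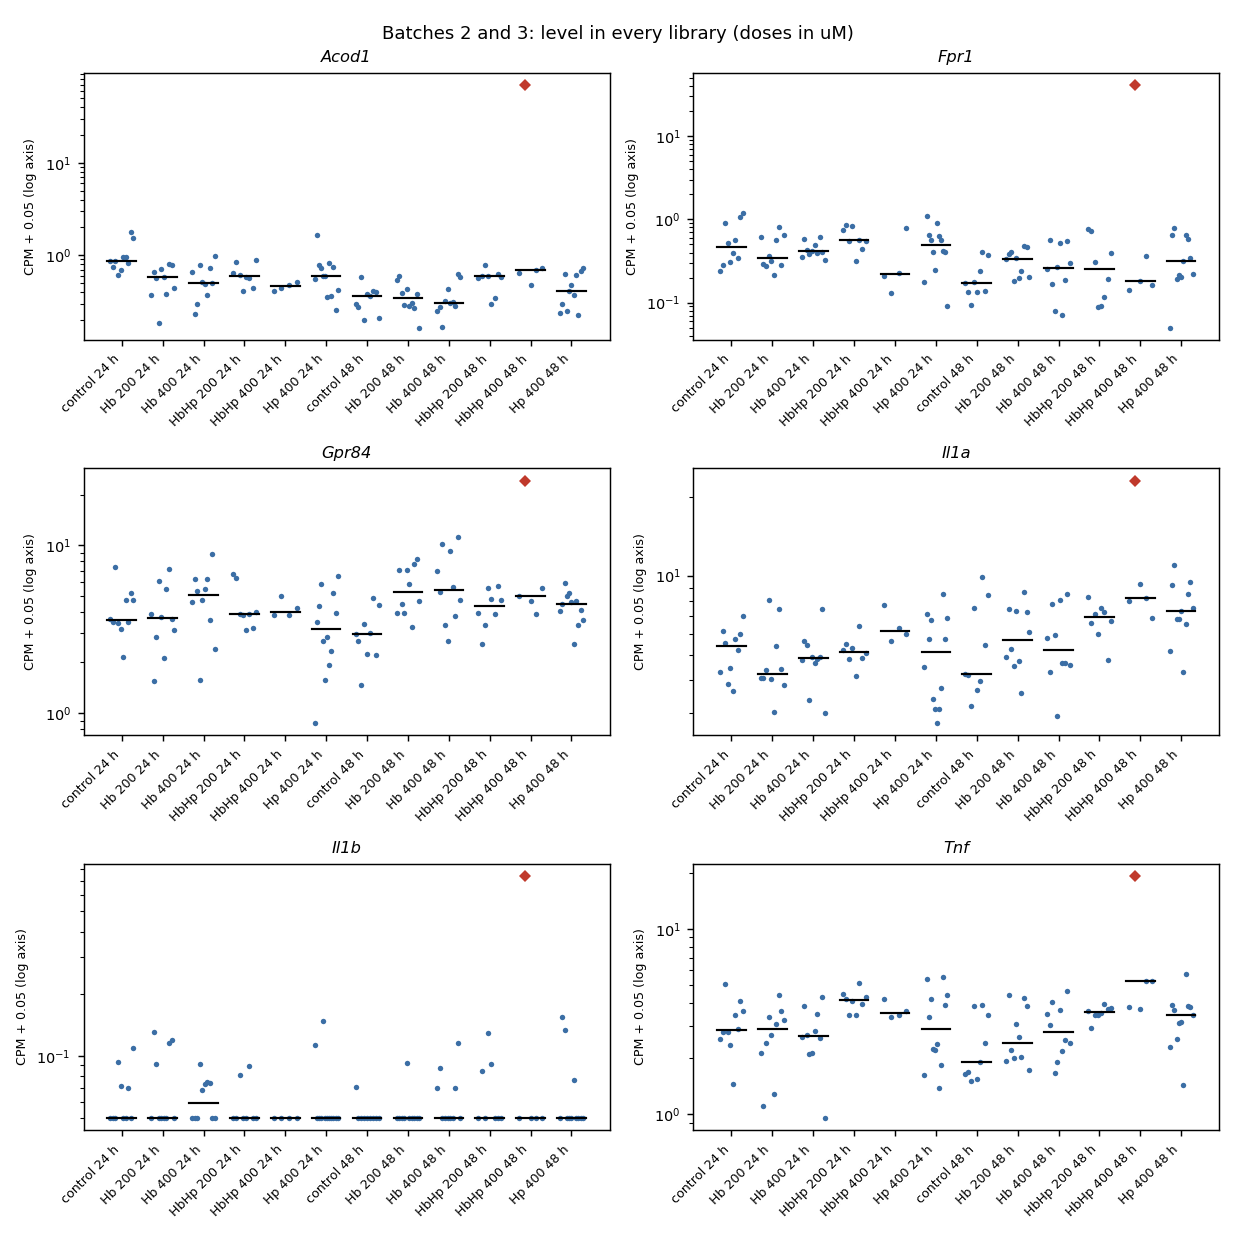
Level of the same 6 genes (CPM plus 0.05, log axis) in every assigned library of batches 2 and 3, by treatment, dose and time; each point is 1 library, the black line is the group median and the red diamond is HbHp 400 µM at 48 h replicate 2. That library holds 68.6 CPM of Acod1 and 40.7 CPM of Fpr1, and no other library passes 1.72 and 1.13 CPM.

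The members were among a limited set of genes that stood out in these libraries. Of all genes tested, 15, 19, 19 and 71 were far above their group in the heme-albumin 400 µM, heme-albumin 50 µM, hemeHpx and HbHp libraries. Y-linked genes made up 5, 5, 5 and 1 of these. A library of batch 1 had a median of 7 genes far above (range 0 to 145) and one of batches 2 and 3 a median of 20 (range 0 to 188). Of the 15331 genes tested in both sets, 5 were far above in all 4 libraries, namely Acod1, Fpr1, the chemokines Ccl5 and Cxcl3, and Marco, a scavenger receptor of macrophages. Ccl5 measured 6.47, 3.25, 4.74 and 15.9 CPM beside group medians of 0.472, 0.290, 0.460 and 0.635. Cxcl3, a neutrophil attractant, measured 6.43, 3.71, 1.67 and 6.65 CPM, and Marco 62.8, 82.5, 73.2 and 424 CPM beside group medians of 14, 14.6, 6.85 and 55.6. In the 3 libraries of batch 1 the shared set was 11 genes, these 5, the C-type lectin Clec4e (4.83, 6.71 and 2.36 CPM) and 5 Y-linked genes, which are high in 29 to 30 of the 60 libraries. Fpr2, the neighbouring formyl peptide receptor, measured 1.07, 1.73 and 0.810 CPM in batch 1 and 6.65 CPM in the HbHp library, and the anti-inflammatory cytokine Il10 0.929, 2.03, 2.04 and 4.75 CPM. Both stood above all group-mates in all 4 libraries. No gene was as far below its group median, at a ratio of 4 or more, in all 4, and the numbers that were so in single libraries were 10, 0, 2 and 32 among genes with a group median of at least 1 CPM.

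**Figure D3:**
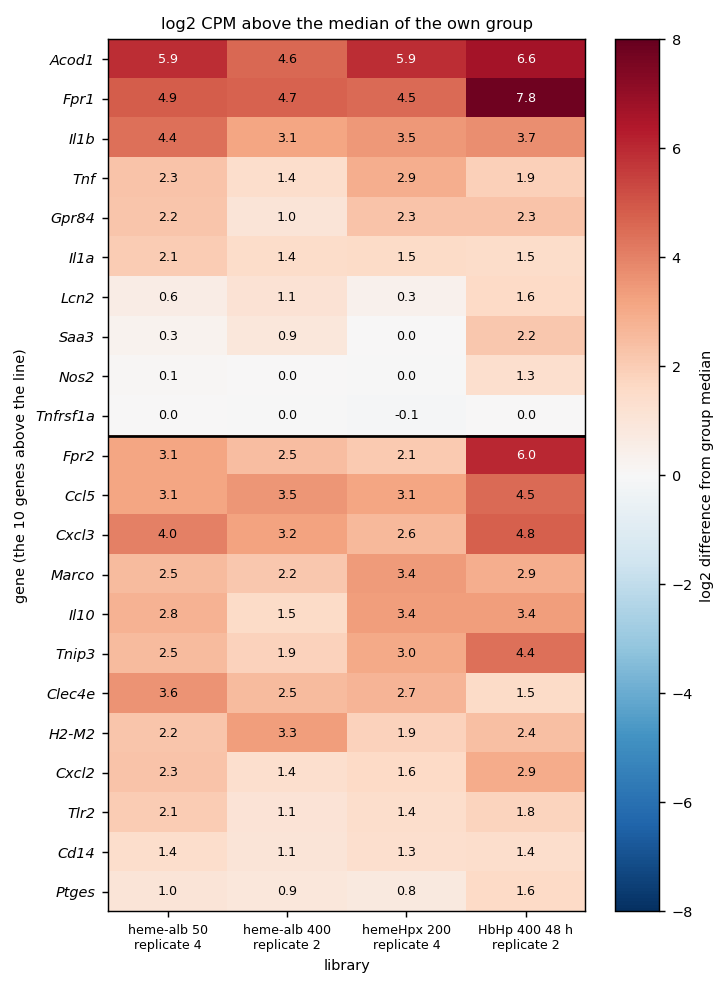
Log2 CPM above the median of the own group for the 10 members (above the line) and for 12 further genes (below it) in the 4 libraries standing apart; colour and printed value give the same quantity. Acod1 and Fpr1 are raised in all 4 columns, while Tnfrsf1a is near 0 in each.

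Genes of the neighbouring pathways stood less far above their groups. Of 14 genes for Toll-like receptor co-receptors and myeloid activation, 11, 14, 13 and 12 lay above their group median in the 4 libraries, and of 10 acute chemokines 8, 10, 9 and 10 did. The summed level of 12 TNF pathway genes was 598, 644, 581 and 888 CPM, in each case above the highest group-mate (582, 553, 498 and 784 CPM). The sums of the other 2 lists did not pass every group-mate in all 4 libraries. In the heme-albumin 400 µM library the Toll-like receptor and myeloid sum was 812 CPM (highest group-mate 879) and the chemokine sum 420 CPM (528.5). The chemokine sum in the hemeHpx library was 238.5 CPM (249). In the remaining cases both sums lay above every group-mate. Most members of these lists stayed under the 4-fold mark, with 1 to 3 Toll-like receptor and myeloid genes and 1 to 3 chemokines past it in each library. In bulk tissue fewer or more cells of a type and less or more RNA per cell cannot be told apart, so markers are given beside these levels. The summed level of 11 microglial markers was 528, 883 and 1558 CPM in the libraries of batch 1, inside the range of the group-mates (466 to 1240, 631 to 1974 and 694 to 1653), and 1500 CPM in the HbHp library, below its group-mates (1753 to 3479). Of the 11, 1, 4, 9 and 1 lay above their group median in the 4 libraries. Siglech was at 0 in all 4 and at most at 0.0682 CPM in any group-mate. Border macrophage markers summed to 81.7, 98.9 and 118 CPM in the libraries of batch 1, inside the range of the group-mates. In the HbHp library they summed to 147 CPM, above its group-mates (88.7 to 122), and 2 of the 6 lay above their group median. Fibroblast and meningeal markers summed to 828 CPM there (group-mates 227 to 632) and lay inside the range in batch 1. Neutrophil markers summed to 14.9, 14.3, 19.7 and 30.5 CPM beside highest group-mates of 12.9, 19, 17 and 24.6, and 7, 5, 7 and 3 of the 12 lay above their group median. Above it in all 4 were Mmp8, a collagenase (7.40, 6.92, 9.09 and 17.4 CPM), and S100a8, a calcium-binding protein (3.97, 2.03, 2.57 and 5.63 CPM), while Retnlg was at 0 in the 4 libraries and in all group-mates, and S100a9 had 1 count in the hemeHpx library and 0 in the other 3. Monocyte markers summed to at most 0.402 CPM, with Ly6c2 at 0 in 3 libraries and at 1 count in the hemeHpx library. Choroid plexus markers were at 0.548 CPM in the HbHp library, where the other 4 ran from 219 to 1004 CPM. The part of these shifts in the levels of the members was not tested.

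Depth and the mitochondrial share of counts are given beside these levels. The totals were 27723207, 23737627, 44199060 and 27732545 counts, the third being the largest of batch 1, and the mitochondrial share was 3.24%, 2.85%, 3.04% and 2.61%, each inside the range of the group-mates. The sample names carry a code whose meaning the labels do not state. All 4 libraries have the letter M in it, which 30 of the 60 libraries of batch 1 have (the other 30 have W) and 54 of the assigned libraries of batches 2 and 3 (the other 53 have F). All 4 also hold Y-linked transcripts, which summed to 202, 182, 191 and 172 CPM. The part of this letter, or of the Y-linked genes, in the levels of the members was not tested. Heme-albumin 50 µM replicate 4 and hemeHpx replicate 4 share a code, and the other libraries with that code in the 4 remaining groups held Acod1 at 0.189 to 1.14 CPM. Libraries sharing the code of heme-albumin 400 µM replicate 2 held 0.168 to 0.973 CPM, and those sharing that of the HbHp library 0.236 to 0.748 CPM, with no member far above in any of them.

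Outside the 4 libraries each group had its own spread. Acod1 had group medians of 0.322 CPM in the controls of batch 1 and 0.688, 0.897, 0.899 and 1.03 CPM at 12.5, 50, 200 and 400 µM heme-albumin, with neighbouring doses overlapping widely, and 0.400 CPM with hemeHpx at 200 µM. In batches 2 and 3 its median was 0.813 CPM in controls at 24 h (0.565 to 1.72) and 0.315 CPM at 48 h (0.150 to 0.533), so that the ranges did not overlap. Gpr84 at 48 h had medians of 2.90 CPM in controls (1.42 to 4.79), 5.22 with Hb 200 µM (3.21 to 8.22) and 5.38 with Hb 400 µM (2.63 to 11.2), with overlapping ranges. Lcn2 and Saa3 were present in every library, from 451 to 2812 CPM and from 78.2 to 947 CPM outside the 4 libraries, and both varied widely within groups.

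As deviations from the group median over libraries, a description in which libraries share batch and depth, the members formed pairs. Over the 60 libraries of batch 1 Acod1 and Fpr1 correlated at r = 0.838, falling to 0.319 over the 57 without the 3 libraries, and over the assigned libraries of batches 2 and 3 at 0.63, falling to 0.22. Gpr84 and Tnf kept their covariation without the 4 libraries, at 0.682 (0.853 with them) and 0.754 (0.785), and so did Gpr84 and Il1a at 0.755 (0.854) and 0.655 (0.697). Lcn2 and Saa3 correlated at 0.753 without the libraries in batch 1 and at -0.485 in batches 2 and 3. The genes most like the mean pattern of the members were Tlr2 (0.893, without the libraries 0.745), Cd14 (0.891, 0.812) and the prostaglandin E synthase gene Ptges (0.831, 0.822) in batch 1, and Zc3h12a, an RNase that degrades cytokine mRNAs (0.777, 0.66), the complement gene C1s1 (0.772, 0.681) and Gm20547 (0.716, 0.651) in batches 2 and 3. Among the 10 most alike in each set, Tlr2, Ptges, Zc3h12a and Aoah, which deacylates lipopolysaccharide, were in both.

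Whether heme-albumin changed these genes was tested in batch 1 by the quasi-likelihood test of edgeR, p-values being Benjamini-Hochberg adjusted over all 15554 genes tested; the 5 comparisons share the 10 control libraries. At 12.5 µM none of the 9 tested members passed (0.045% of all genes did; 1 member and 1226 of all genes had an unadjusted p under 0.05, and DESeq2 called no member). At 50 µM Acod1 and Tnfrsf1a were called (0.463% of all genes), at 200 µM Tnfrsf1a alone (13.6%), at 400 µM Acod1, Fpr1 and Tnfrsf1a (29%), and with hemeHpx at 200 µM Acod1 and Tnfrsf1a (8.2%), all higher than control. DESeq2, which by default replaces single outlying counts, called Acod1 also at 200 µM (log2 1.42, adjusted p = 0.000324), did not call Fpr1 at 400 µM (0.54, adjusted p = 0.226), and gave Acod1 no adjusted p with hemeHpx. The groups at 50 µM, at 400 µM and with hemeHpx each hold 1 of the libraries that put Acod1 and Fpr1 on the list, so their fitted changes are given without a p and nothing is read from the calls: Acod1 4.12 (SE 1.01), 3.31 (SE 1.01) and 3.15 (SE 1.0) on the log2 scale, and Fpr1 2.55 (SE 0.85) at 400 µM. At 200 µM, whose group holds none, that of Acod1 was 1.40 (SE 1.07, adjusted p = 0.418). The median log2 change of the 9 members was -0.01, 0.54, 0.08, 0.16 and 0.29 in the 5 comparisons, beside -0.01, -0.01, -0.01, -0.01 and 0.01 over all genes tested.

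Leaving out the 3 libraries changed the doses at which Acod1 was called. These libraries were picked by the values tested, so the results without them describe the remaining 57 libraries. Acod1 then rose 2.65-fold at 200 µM (log2 1.41, SE 0.32, adjusted p = 0.00177) and 2.95-fold at 400 µM (1.56, SE 0.33, adjusted p = 0.000201), and was not called at 12.5 µM (0.94, SE 0.33, adjusted p = 0.64), at 50 µM (1.18, SE 0.33, adjusted p = 0.143) or with hemeHpx (-0.04, SE 0.35, adjusted p = 0.956). The estimate at 200 µM hardly moved, 1.40 before and 1.41 after, while its SE fell from 1.07 to 0.32, because 1 dispersion is fitted per gene over all groups. Fpr1 at 400 µM was 0.56 (SE 0.34, adjusted p = 0.23). Against heme-albumin 200 µM, the comparison of the complex with heme on albumin, no member was called with all libraries (25.9% of all genes called; 4 members and 6335 of all genes had an unadjusted p under 0.05), and Acod1 was 1.75 higher on the log2 scale with hemeHpx (SE 0.87, adjusted p = 0.12). Without hemeHpx replicate 4 and the other two, Acod1 fell by 1.45 with hemeHpx (0.367-fold, SE 0.32, adjusted p = 0.00138), so the direction rested on 1 library. DESeq2 on all libraries called Acod1 lower with hemeHpx (-1.31, adjusted p = 0.000327), and Gpr84 and Tnf higher, these through the library that chose them. The number of genes called for hemeHpx against control was 1276 with all libraries and 119 without the 3.

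**Figure D4:**
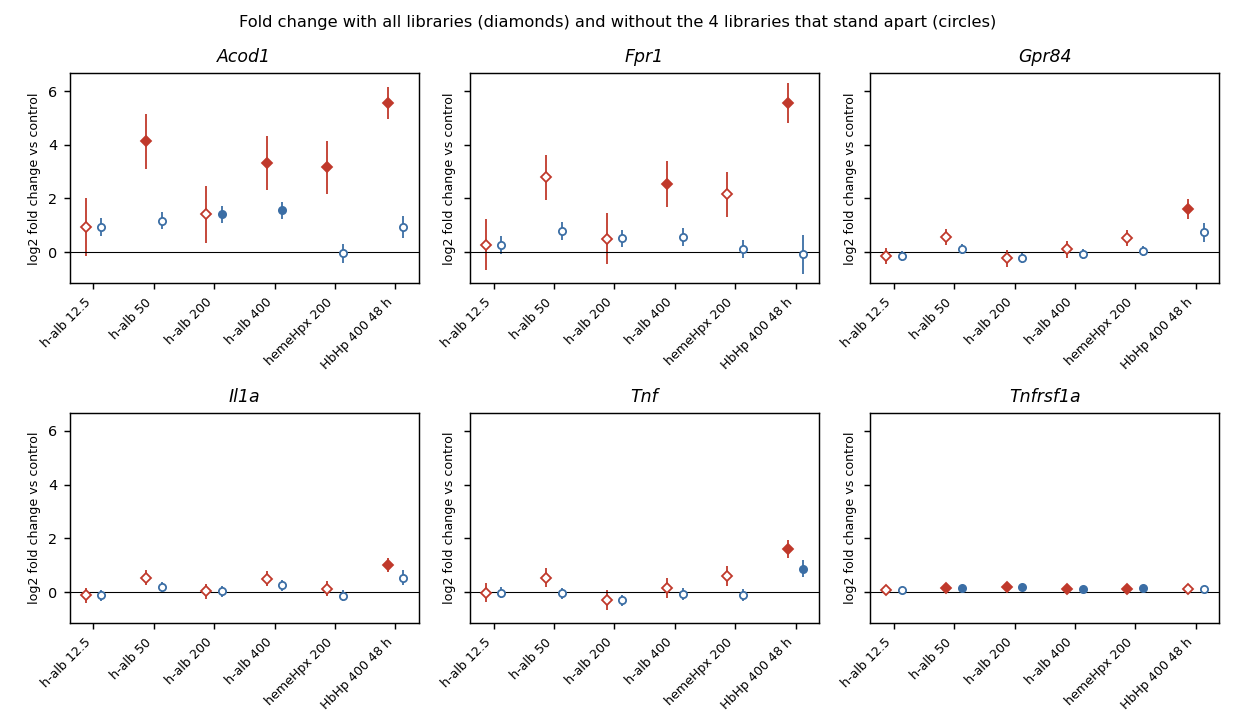
Log2 fold change against the matched control (edgeR) of 6 members in 6 comparisons, with all libraries (diamonds) and without the 4 libraries (circles); bars are the SE and filled symbols have an adjusted p under 0.05, and the diamonds include the libraries that chose the genes. Acod1 falls from 4.12 to 1.18 at 50 µM heme-albumin, from 3.15 to -0.04 with hemeHpx and from 5.56 to 0.95 with HbHp 400 µM at 48 h.

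Tnfrsf1a was the member called in the 3 heme-albumin groups from 50 µM upward and with hemeHpx, by a small amount. The study names it from its Hb and HbHp libraries, so the tests of those groups below are not independent evidence of its direction. Controls held 234 ± 13.8 CPM of it (SD, n = 10), against 251 ± 12.6 at 12.5 µM, 263 ± 8.49 at 50 µM, 265 ± 13.9 at 200 µM, 255 ± 9.36 at 400 µM and 256 ± 13.7 with hemeHpx. The increases over control were 1.12-fold at 50 µM (log2 0.17, SE 0.04, adjusted p = 0.00453), 1.13-fold at 200 µM (0.18, SE 0.04, adjusted p = 0.000273), 1.09-fold at 400 µM (0.12, SE 0.04, adjusted p = 0.00618) and 1.09-fold with hemeHpx (0.13, SE 0.04, adjusted p = 0.0333). Without the 3 libraries all 4 stayed called, with adjusted p = 0.0126, 0.000343, 0.00803 and 0.0472. In batches 2 and 3 the controls stood at 206 ± 13.7 CPM (n = 10) at 24 h and 229 ± 16.7 CPM (n = 9) at 48 h, and Hb 200 µM at 226 ± 14.3 and 256 ± 14.7 CPM (n = 10 each). The differences for Hb 200 µM, 0.14 (SE 0.05, adjusted p = 1) and 0.16 (SE 0.05, adjusted p = 0.206) on the log2 scale, were of the same size as those of batch 1 and did not pass the adjusted threshold. For HbHp 200 µM they were 0.12 (SE 0.05, adjusted p = 0.223) and 0.03 (SE 0.06, adjusted p = 0.76). HbHp 200 µM differed from Hb 200 µM by -0.015 (SE 0.06, edgeR adjusted p = 0.903) at 24 h. At 48 h it was lower by -0.13 (SE 0.06, adjusted p = 0.0875), which did not pass the threshold.

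**Figure D5:**
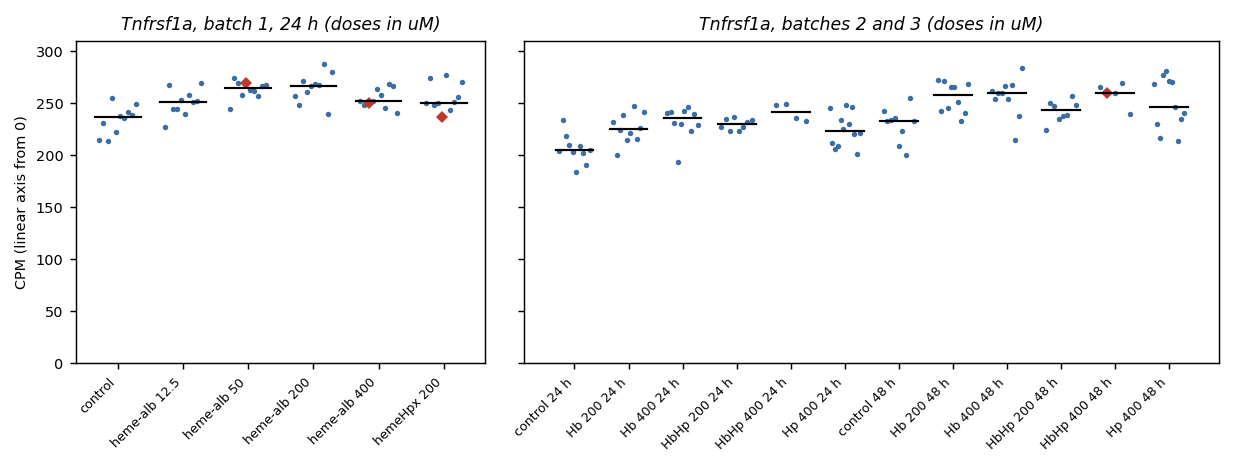
Level of Tnfrsf1a (CPM, linear axis from 0) in every assigned library by group, with the group median as a black line and the 4 libraries of the other plots as red diamonds. Control libraries of batch 1 average 234 CPM and those given 50 µM heme-albumin 263 CPM, with overlapping points, and the diamonds lie among or just below their group-mates.

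In batches 2 and 3 the treatments were compared with the control of the same time, with batch as a term in the fit, over 16473 genes tested. At 24 h none of the 9 members passed for Hb 200 µM (0.0425% of all genes called), Hb 400 µM (0.261%), HbHp 200 µM (3.46%), HbHp 400 µM (7.61%) or Hp 400 µM (0.0607%), and the numbers of members with an unadjusted p under 0.05 were 3, 3, 1, 1 and 0, beside 453, 830, 2948, 3915 and 1555 of all genes. DESeq2 called Tnfrsf1a for Hb 400 µM (adjusted p = 0.0324) and for HbHp 400 µM (adjusted p = 0.0471) and no other member, giving no adjusted p for Acod1 and Fpr1. At 48 h none passed for Hb 200 µM (0.115%), Hb 400 µM (0.334%), HbHp 200 µM (24.7%) or Hp 400 µM (10.8%), with 2, 2, 0 and 0 members and 612, 913, 5980 and 4570 of all genes at an unadjusted p under 0.05, and DESeq2 called Gpr84 for Hb 400 µM alone. HbHp 400 µM at 48 h was the exception with 5 of 9 (20.4% of all genes called). The batch term rests on the control and Hb groups, the only ones with libraries of both batches. This fit has no term for the experiment code or for the replicate code in the sample names. With either term more members were called against control at both times, as given in the last section. Those counts stand without the share over all genes under the same term, so they are not read as a result about the members.

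These 5 calls use the library that put the genes on the list, so they are given without a p and nothing is read from them. The fitted log2 changes with all 5 libraries were 5.56 for Acod1 (SE 0.59), 5.56 for Fpr1 (SE 0.75), 1.61 for Gpr84 (SE 0.36), 1.61 for Tnf (SE 0.33) and 1.0 for Il1a (SE 0.26). Replicate 2 was picked by the values tested, so the results without it, here and below, describe the remaining libraries. Without it, Tnf alone passed at 1.84-fold (0.88, SE 0.32, adjusted p = 0.0392). Acod1 was then 0.95 (SE 0.41, adjusted p = 0.0807), Fpr1 -0.08 (SE 0.72, adjusted p = 0.955), Gpr84 0.74 (SE 0.36, adjusted p = 0.131) and Il1a 0.54 (SE 0.27, adjusted p = 0.133). The number of genes called among all those tested was 3356 with replicate 2 and 3438 without. Nos2 (0.02, adjusted p = 0.966) and Lcn2 (0.10, adjusted p = 0.876) did not pass with all libraries.

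The comparisons with Hb at the same dose ask what haptoglobin did. For HbHp 200 µM no member passed at 24 h (5.71% of all genes called) or 48 h (14.1%), nor for HbHp 400 µM at 24 h (3.95%), with 1 member each and 3528, 4709 and 3517 of all genes at an unadjusted p under 0.05, where DESeq2 called 1, 0 and 0 members. The member nearest the threshold, and the one DESeq2 called, was Lcn2, lower with HbHp 200 µM at 24 h by edgeR's quasi-likelihood test (log2 -0.84, SE 0.30, adjusted p = 0.0702). For HbHp 400 µM at 48 h 4 passed (8.23%), again through the library that chose them: Acod1 (5.53, SE 0.57), Fpr1 (4.90, SE 0.71), Tnf (1.31, SE 0.32) and Il1a (0.96, SE 0.27). Without replicate 2 none did, Tnf being at 0.58 with an adjusted p of 0.25. The change from 24 to 48 h in the effect of HbHp 400 µM was called for Acod1 (6.73, SE 0.87) and Fpr1 (6.59, SE 1.1), 2 of the 3 genes called (0.0182%), through the same library, and for no gene without it. The same change was called for no member for Hb 200 µM (0% of all genes), Hb 400 µM (0%), HbHp 200 µM (0.0121%) or Hp 400 µM (0%), with 1 member each and 133, 266, 1376 and 1657 of all genes at an unadjusted p under 0.05, and by DESeq2 for none.

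Gpr84, which the study names, had higher medians with Hb at 48 h without passing the threshold with all libraries. Its change was 0.92 (1.89-fold, SE 0.28, adjusted p = 0.306) for Hb 200 µM and 1.08 (2.11-fold, SE 0.28, adjusted p = 0.0642) for Hb 400 µM. Without HbHp 400 µM replicate 2, a library of neither group, the latter was 1.08 with an SE of 0.26 and an adjusted p of 0.0267. At 24 h the change for Hb 200 µM was -0.07 (SE 0.27, adjusted p = 1), and HbHp 200 µM differed from Hb 200 µM by 0.23 (SE 0.34, adjusted p = 0.722) at 24 h and by -0.33 (SE 0.33, adjusted p = 0.527) at 48 h. Between control slices, 48 h against 24 h, Acod1 fell by 1.64 on the log2 scale (0.322-fold, SE 0.45, adjusted p = 0.0315), the only member that edgeR called (2.28% of all genes). DESeq2 gave Acod1 no adjusted p there and called Tnfrsf1a higher at 48 h (0.15, adjusted p = 0.0296). Without the HbHp library Fpr1 was called as well, having fallen by 1.79 (0.29-fold, SE 0.44, adjusted p = 0.0153).

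Genes of the surrounding pathways were read in the same fits, from lists set beside the members. At 400 µM heme-albumin 8 of 12 genes for NF-kappaB factors and their feedback inhibitors rose and none fell, 8 of 14 Toll-like receptor and myeloid genes rose and 1 fell, and 7 of 9 chemokines rose and 1 fell. The median log2 change of these lists was 0.27, 0.33 and 1.07, beside -0.01 over all 15554 genes tested, of which 2284 rose and 2226 fell. Without the 3 libraries these counts were 5 and 0, 8 and 1, and 5 and 2. Of 14 IL-1 and inflammasome genes 1 rose and 6 fell with or without them. At 200 µM, 4 and 0, 3 and 1, and 4 and 2 rose and fell in the first 3 lists, beside 1086 and 1027 of all genes tested. Of 10 tested microglial markers 8 fell there (median -0.84), a shift whose part in the member levels was not tested. For HbHp 400 µM at 48 h 6 of 12 TNF pathway genes rose (5 without replicate 2) and 8 of 14 Toll-like receptor and myeloid genes (6 without it, and 1 fell), with medians of 0.31 and 0.64 beside 0.01 over all genes, of which 20.4% were called. Cell markers stood higher there than in 48 h controls. The median summed level was 2282 CPM for microglia (controls 1587), 117 CPM for border macrophages (68.8) and 23.7 CPM for neutrophils (11.4). With haptoglobin alone at 48 h these medians were 2738, 112.2 and 20.37 CPM. They were 2408, 89.97 and 20.84 CPM with HbHp 200 µM, 1529, 95.98 and 11.5 CPM with Hb 200 µM, and 1553, 106.6 and 14.74 CPM with Hb 400 µM. No batch term enters these levels. The HbHp and Hp libraries are all of batch 3, and most control and Hb libraries are of batch 2. The part of these markers in the changes was not tested. For HbHp 400 µM at 48 h against control Slc11a1, a phagosomal metal transporter, was at 1.63 (adjusted p = 2.07e-05) and without replicate 2 at 1.68 (adjusted p = 3.68e-05). Tnfaip3, a feedback inhibitor of NF-kappaB, was at 1.08 (adjusted p = 2.57e-07) and 1.0 (adjusted p = 6.21e-06). Marco, singled out above partly through replicate 2, went from 2.44 with it to 1.14 without it (adjusted p = 0.00642). Fpr2 went from 5.55 to 0.50 (adjusted p = 0.832) and Cxcl3 from 3.55 to 0.28 (adjusted p = 0.846), both called only with that library. Haptoglobin alone at 48 h was also called for Slc11a1 (0.87, edgeR adjusted p = 0.0175) and Tnfaip3 (0.56, adjusted p = 0.00552). With HbHp 200 µM at 48 h the calls included Slc11a1 (1.28, adjusted p = 0.000259), Tnfaip3 (0.53, adjusted p = 0.00425) and Marco (0.84, adjusted p = 0.0487).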

How the data were processed

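Bulk mRNA libraries of brain slice cultures were compared. The authors deposited 1 table of read counts per gene and library, unnormalised and keyed by Ensembl identifier; featureCounts and the build GRCm39 are named in the submitters' processing notes, and the aligner, annotation and strand setting are not given in the sources used here. Reads shared by near-identical genes or by a gene and its antisense partner can therefore not be separated. Libraries were grouped from the labels, and the 21 with conflicting or unsettled labels entered no comparison.

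Counts were tested with edgeR 4.0.16 in R 4.3.3 (TMM scaling, filterByExpr with a minimum count of 10 and a minimum total of 15, quasi-likelihood test, Benjamini-Hochberg adjustment over all genes tested, threshold 0.05), in 1 fit for batch 1 and 1 for batches 2 and 3 with batch as a term, since the sets share no group. The study's own method, DESeq2, was run as an alternative (version 1.42.0). An SE is the size of the log2 change over the root of its F statistic. The script was tested on simulated data. Levels are CPM over the TMM-scaled library total of the genes that passed the filter, handled with Python 3.11.15, pandas 2.3.3 and numpy 2.4.6. Other alternatives were RLE scaling, no filter, a replicate block, no batch term, an experiment term, single batches, and leaving out each replicate or the 4 libraries.

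The members, the lists and the mark for a library standing apart were chosen with earlier results of these data known. Genes named beside the members were those far above in all 4 libraries, those most like the members' mean pattern with a mean of at least 1 CPM, and listed pathway genes called in the comparisons. No 2 libraries of a group agreed within sampling noise: the lowest chi-square per degree of freedom was 3.49 over 270 pairs in batch 1 and 5.74 over 360 pairs in batches 2 and 3. Counting error is largest for genes under 1 CPM, and the ranges given cover the spread between libraries.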

Additional observations from a re-analysis of the deposited data

Results flagged for a closer look

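A sample was singled out where its gap to the nearest other sample was a large share of its group's range (Dixon's 95% critical value). Of 160 pairs of member and group, 32 had such a sample. The genes were chosen for their values in the 4 libraries described above, in which 21 of the 32 lie, so the count is a description and is not read against the 1 in 20 that chance singles out.

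In heme-albumin 50 µM replicate 4 these were Acod1 (58.5 CPM), Fpr1 (17.6 CPM), Gpr84 (14.1 CPM), Il1b (1.81 CPM) and Tnf (12.9 CPM). In heme-albumin 400 µM replicate 2 they were Acod1 (27.3 CPM), Fpr1 (14.5 CPM), Il1a (15.5 CPM), Il1b (0.679 CPM) and Tnf (5.86 CPM). In hemeHpx 200 µM replicate 4 they were Acod1 (29.4 CPM), Fpr1 (10.7 CPM), Gpr84 (14.1 CPM), Il1b (0.879 CPM) and Tnf (14.8 CPM). In HbHp 400 µM at 48 h replicate 2 they were Acod1 (68.6 CPM), Fpr1 (40.7 CPM), Gpr84 (24.2 CPM), Il1a (23 CPM), Il1b (0.695 CPM) and Tnf (19.3 CPM). All of these were the highest of their group.

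The other 11 were scattered over libraries and genes, and in no library did 2 members stand apart together. Among the highest values, Nos2 was at 7.29 CPM in a 24 h control of batches 2 and 3, Saa3 at 414 CPM in a 48 h control, and Il1b, which rests on a few counts, at 0.0452 CPM in a control of batch 1, 0.0419 CPM with Hb 200 µM at 48 h and 0.0205 CPM in a 48 h control. Among the lowest, Saa3 was at 234 CPM in a control of batch 1, Fpr1 at 0.124 CPM with heme-albumin 12.5 µM, Gpr84 at 1.01 CPM with heme-albumin 200 µM, Acod1 at 0.135 CPM with Hb 200 µM at 24 h, and Tnf at 0.902 CPM and Tnfrsf1a at 194 CPM in different libraries of Hb 400 µM at 24 h.

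The effect of HbHp 400 µM differed between 24 and 48 h for Acod1 (6.73 on the log2 scale) and Fpr1 (6.59), where the test of the difference used the library that chose the genes. Without replicate 2 of the 48 h group these were 2.13 (adjusted p = 0.362) and 0.95 (adjusted p = 1), so both rested on that library.

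The 21 libraries that the labels put in no group had no member far above the rest. Their highest values passed every control library of batches 2 and 3 for Gpr84 (8.07 CPM, controls up to 7.38, in 1 library), Il1b (0.171 CPM, controls up to 0.0593, in 8 libraries), Tnf (5.28 CPM, controls up to 5.00, in 1 library), Tnfrsf1a (269 CPM, controls up to 255, in 2 libraries) and Lcn2 (2207 CPM, controls up to 1786, in 3 libraries).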

How the results depend on the processing

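Of the member changes named above, 466 values under other settings kept their direction and side of the threshold, 36 kept only the direction, 5 newly passed and 18 changed sign, and DESeq2 gave no adjusted p for 8. Of the counts of calls and of libraries, 73 stayed within 1.5-fold and 24 did not. The number of libraries standing apart stayed 4 with an 8-fold mark, another prior count or RLE scaling, and was 9 with a 2-fold mark, 3 of the 5 added being untreated controls of batches 2 and 3.

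Member calls of scavenger complex against free toxin (4) were 7 under DESeq2 without outlier handling, 7 without a batch term, 2 in batch 3 alone, 1 without the 4 libraries, 1 with the 200 µM groups alone (0 before), and 0 to 4 with each HbHp 400 µM replicate left out, the 0 being without replicate 2 at 48 h. Calls against control at 24 h in batches 2 and 3 (0) were 2 under DESeq2 with or without outlier handling, 3 with the replicate block, 2 without a batch term, 3 with an experiment term and 1 in batch 2 alone. At 48 h (5) they were 9 with the replicate block, 8 without a batch term, 10 with an experiment term, 2 without the 4 libraries, 1 in batch 3 alone and 2 to 5 with each replicate left out, the 2 being without HbHp 400 µM replicate 2. Calls of a change from 24 to 48 h (2) were 0 under DESeq2, 1 with the replicate block, 0 without the 4 libraries, 0 in batch 3 alone and 0 to 2 with each replicate left out. These counts of member calls stand without the share over all genes under the same setting, so they are not read as a result about the members. Apart from settings that leave libraries out, the cause was not tested.

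Signs changed without the 4 libraries for Acod1 with hemeHpx (-0.039), and also with only HbHp 400 µM replicate 2 left out for Fpr1 against control (-0.082) and against Hb 400 µM (-0.74) at 48 h; with each HbHp 400 µM replicate left out in turn these ran from -0.082 to 5.87 and from -0.74 to 5.21. The others were small changes that passed no test. Gpr84 for Hb 200 µM at 24 h was 0.007 with an experiment term and 0.20 in batch 2 alone. Gpr84 for HbHp 200 µM at 24 h was -0.25 with the replicate block, -0.14 with an experiment term and -0.33 in batch 3 alone, and against Hb 200 µM -0.17 with the replicate block and -0.15 with an experiment term. Tnfrsf1a in batch 3 alone was -0.061 for Hb 200 µM at 24 h and -0.02 for HbHp 200 µM at 48 h. For HbHp 200 µM against Hb 200 µM at 24 h it was 0.052 with the replicate block, 0.043 without a batch term, 0.063 with an experiment term and 0.07 in batch 3 alone.

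The replicate block used the codes in the sample names. Libraries sharing a code deviated together (r over 0.1) in 95 of 169 pairs in batch 1 and 154 of 291 in batches 2 and 3, against 462 of 1331 and 1587 of 4926 pairs of other codes. In batch 1 25 of 60 libraries, and in batches 2 and 3 14 libraries, correlated best with their own code. Pairs sharing a code thus deviated together more often than other pairs, though not all did. The main fits do not use the codes, so their p-values treat libraries sharing a code as independent. The block's added calls were Tnfrsf1a for Hb 400 µM, HbHp 200 µM and HbHp 400 µM at 24 h, Tnfrsf1a for Hb 200, Hb 400 and HbHp 400 µM at 48 h, and Lcn2 for HbHp 400 µM at 48 h. Genes under 1 CPM, Il1b above all, rest on few counts, and the depth here cannot show small changes in them. HbHp 400 µM groups of 4 and 5 libraries let 1 library set a mean.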
